A study of Mus musculus with 8 samples.

Results

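Oxidative phosphorylation subunit genes were followed across 8 RNA-seq libraries of mouse iPSCs (induced pluripotent stem cells, which are reprogrammed somatic cells that can form all tissues). The members were the genes whose symbol follows the naming pattern of the nuclear-encoded subunits (Nduf, Sdh, Uqcr, Cox and Atp5 followed by a subunit code), which gave 81 of the 23284 genes in the table. By respiratory complex they comprised 35 genes of complex I, 4 of complex II, 8 of complex III, 18 of complex IV and 16 of complex V. Ndufa4 was placed with complex IV, where its protein is now known to sit despite its complex I symbol, and Atp5s encodes factor B, which is not a structural subunit of complex V.

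Oxidative phosphorylation takes place in the inner mitochondrial membrane. Complexes I and II pass electrons from NADH and succinate to ubiquinone, complex III passes them on to cytochrome c and complex IV to oxygen, and complex V (ATP synthase) uses the proton gradient that complexes I, III and IV build to make ATP. Pluripotent stem cells are known for a high rate of glycolysis, and their use of respiration differs between pluripotent states. The complexes also hold subunits encoded by mitochondrial DNA, of which 0 of 13 were rows of the table, so every value here concerns the nuclear part.

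All cells were iPSCs reprogrammed from mouse embryonic fibroblasts and grown on feeder cells. Wild-type iPSCs, ColA1_miR203 (+/+) and Rosa26rtTA (+/+), were transfected with a control siRNA (siControl), an siRNA against Dnmt3a, one against Dnmt3b, or both together (double siRNA), with collection 1 week later and 1 library per group. Knock-in iPSCs, ColA1_miR203 (KI/KI) and Rosa26rtTA (KI/KI), carry the microRNA miR-203 under doxycycline (dox) control in both the dox and the vehicle group. Clones 1 and 2 received dox for 5 days and were collected 2 weeks after its withdrawal, and the vehicle group also had a clone 1 and a clone 2 (n = 2 per group). The labels do not say whether the wild-type libraries came from 1 clone, nor whether dox and vehicle libraries of equal number came from the same clone. Where nothing states separate cultures, p-values measure only the spread between these libraries, which may be technical.

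The siRNA targets were only slightly lower at collection. Dnmt3a, which encodes an enzyme that sets new DNA methylation, was at 75.1 FPKM (fragments per kilobase of transcript, scaled to the fragments of the library) in siControl, 59.8 in the Dnmt3a siRNA library and 69.5 in the double siRNA library. Dnmt3b, its partner enzyme, was at 146 FPKM in siControl, 128 in the Dnmt3b siRNA library and 135 in the double siRNA library. Markers of the labelled cell type were present in every library, with 10 iPSC markers (such as Pou5f1 and Dppa5a) summing to between 2922 and 3716 FPKM in wild type, 3407 and 3774 in vehicle and 4300 and 4409 in dox. Single iPSC markers went both ways. In the tests described below, 3 of the 10 rose and 2 fell in dox, beside 17.1% and 14.8% of all genes. In vehicle 6 were higher and 2 lower than in wild type, beside 33.7% and 32.9% of all genes. The 16 markers of feeder fibroblasts summed to 125 to 205 FPKM in wild type, 554 to 663 in vehicle and 2474 to 2588 in dox, without overlap between the groups. Macrophage markers (8 genes) summed to 146 to 198, 257 to 288 and 358 to 461 FPKM in the same groups. The 4 epithelial markers summed to 7.13 to 8.05 FPKM in wild type, 10.8 to 11.9 in vehicle and 19.8 to 20.1 in dox. Of these, Krt5 and Krt14 were at or under 0.125 FPKM. The depth in fragments is not given, so no counting intervals were computed, and summed FPKM per library ranged from 486917 to 586657, highest in the double siRNA library. In such bulk libraries, fewer cells of a type and less RNA per cell cannot be told apart.

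Transcripts of the members were abundant. Together they made up between 2.75% (siControl) and 3.05% (double siRNA) of a library's summed FPKM, and 76 of the 81 had a mean of at least 1 FPKM over the 8 libraries. Complex V contributed most, at 1.00% of the siControl library, followed by complex IV at 0.716%, complex I at 0.655%, complex III at 0.291% and complex II at 0.0831%. Over all members of each complex, in siControl, the median gene of complex V was at 280 FPKM and that of complex IV at 266 FPKM. The median was 192 FPKM for complex III, 102 FPKM for complex II and 81.5 FPKM for complex I.

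The most abundant member was Atp5b, the catalytic beta subunit of ATP synthase, at 1101 FPKM in siControl and between 1017 and 1246 FPKM in all libraries. Cox4i1, the common isoform of the complex IV regulatory subunit, led complex IV with 664 FPKM in siControl. In complex III the highest were Uqcrh, the hinge protein at the cytochrome c1 site, at 303 FPKM, and Uqcrq, a small subunit, at 231 FPKM. Ndufa7 at 281 FPKM and Ndufb8 at 203 FPKM led complex I, both supernumerary subunits that surround its catalytic core. The 4 genes of complex II lay close together, from Sdhc at 96.1 FPKM to Sdhd at 126 FPKM, both membrane anchors, with the flavoprotein Sdha at 105 FPKM and the iron-sulfur subunit Sdhb at 98.5 FPKM.

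The 5 members under a mean of 1 FPKM were tissue-restricted isoforms of complex IV. Cox8b, the isoform of heart and skeletal muscle, was listed at 0 in all 8 libraries. Cox6a2, the muscle partner of Cox6a1, stayed between 0 and 0.392 FPKM, Cox4i2, an isoform best known from lung and hypoxic cells, between 0.308 and 1.54 FPKM, and Cox7b2 between 0.306 and 0.867 FPKM. Cox8c, a testis isoform, was between 0.376 and 0.540 FPKM in wild type, at 0.0905 and 0.0940 FPKM in vehicle and listed at 0 in both dox libraries. Their common counterparts Cox8a, Cox6a1, Cox4i1 and Cox7b were at 169 FPKM or more in every library. Cox6b2 and Cox7a1, isoforms of the same class, did pass 1 FPKM and are described with the comparisons.

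**Figure D1:**
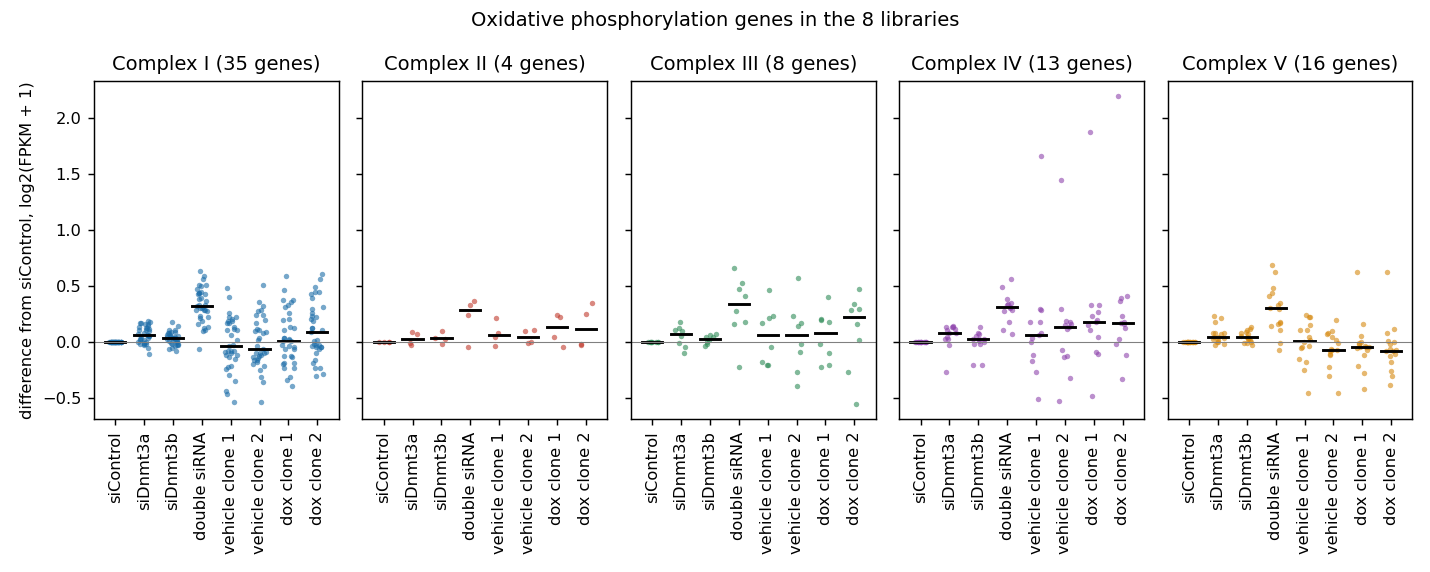
Difference of every member with a mean of at least 1 FPKM from its siControl value, on log2(FPKM + 1), in each of the 8 libraries (x axis), by complex (points, genes; horizontal bars, medians). The medians of the double siRNA library are the only ones near 0.3 in all 5 complexes, and the isolated high complex IV points in the knock-in libraries are Cox6b2.

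Whether transient miR-203 induction changed these genes was tested by comparing dox with vehicle. Of the 76 members tested, 10 rose in dox and 0 fell. The members' share that rose was 13.2%, beside 17.1% of all 11927 genes tested that rose and 14.8% that fell (limma on log2(FPKM + 1), Benjamini-Hochberg adjusted over all genes, threshold 0.05). The median difference of the members was 0.04 and that of all genes was -0.01. At an unadjusted p under 0.05, 14 members (18.4%) were higher and 1 (1.32%) was lower, beside 22.7% and 22.9% of all genes. With the clone number as a block, 19 members rose and 6 fell (25.6% and 26.7% of all genes), including all 10 of the unblocked fit. The 9 added by the block were Atp5d, Cox8a, Ndufa2, Ndufb2, Ndufb8, Ndufb9, Ndufs5, Sdhb and Uqcrq. The 6 that fell in the blocked fit were Atp5g3, Atp5k, Atp5l, Ndufa12, Ndufv1 and Sdhd.

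In complex I, 5 of 35 genes rose (14.3%, beside 17.1% of all genes). All 5 were supernumerary, as are most of its members. Ndufa13, which encodes a subunit also studied as the cell death regulator GRIM-19, led them. It was at 70.6 and 72.3 FPKM in the vehicle clones and at 98.2 and 112 FPKM in the dox clones, and the groups did not overlap. The difference was 0.55 ± 0.09 (SE, n = 2 per group) on log2(FPKM + 1), with an adjusted p of 0.00619 in limma. Its wild-type levels, 81.8 (siControl), 90.1 (Dnmt3a siRNA), 84.2 (Dnmt3b siRNA) and 117 FPKM (double siRNA), lay above both vehicle clones. Ndufa13 (GRCm38 chr8:69894180-69902558, minus strand) overlaps Tssk6 and Yjefn3 in the annotation, and the strand setting of the counting is not given.

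Ndufb4, a supernumerary subunit of the membrane arm, was at 154 and 167 FPKM in vehicle and at 206 and 209 FPKM in dox, a difference of 0.37 ± 0.07 (SE, n = 2 per group, limma adjusted p = 0.0131). Ndufa6 was at 97.5 and 107 FPKM in vehicle against 120 and 138 FPKM in dox, a difference of 0.33 with an adjusted p of 0.0386 in limma. In both genes each dox clone was above each vehicle clone. Ndufb11 (0.27) and Ndufa7 (0.26) rose by less. Of the core subunits of complex I that carry its cofactors or bind its substrates, Ndufs1, Ndufs3, Ndufs7, Ndufs8, Ndufv1 and Ndufv2 differed by between -0.16 and 0.09, and none passed the unblocked test.

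In complex IV, 3 of 13 genes tested rose (23.1%, beside 17.1% of all genes), and 2 of these encode tissue-restricted isoforms. The other isoforms of that class were under the minimum of 1 FPKM and were not tested. Cox7a1, the isoform of heart and skeletal muscle, was at 12.8 and 12.3 FPKM in vehicle and at 17.4 and 17.7 FPKM in dox. Its difference was 0.45 ± 0.08 (SE, n = 2 per group, limma adjusted p = 0.0102), while its common counterpart Cox7a2 was level at 229 and 226 FPKM in vehicle and 230 and 229 FPKM in dox (difference 0.01). Cox6b2, an isoform known from testis, was at 39.7 and 34.0 FPKM in vehicle and at 46.3 and 57.8 FPKM in dox. That difference was 0.48 ± 0.13 (SE, n = 2 per group, limma adjusted p = 0.0312), and the common Cox6b1 differed by -0.01. Cox6a1 was the third, from 291 and 319 FPKM in vehicle to 366 and 376 FPKM in dox (0.28, limma adjusted p = 0.0306).

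In the other complexes, Sdhc, a haem-binding membrane anchor of complex II, rose from 99.1 and 95.4 FPKM to 114 and 115 FPKM (0.23, limma adjusted p = 0.0447). Its partner anchor Sdhd, at 146 and 136 FPKM in vehicle and 130 and 124 FPKM in dox, differed by -0.15 and did not pass the unblocked test. Atp5s, the low-level factor B gene of complex V, was at 2.82 and 2.50 FPKM in vehicle and at 4.03 and 4.02 FPKM in dox (0.46, limma adjusted p = 0.0211). The other 15 genes of complex V lay between -0.22 (Atp5k) and 0.17 (Atp5d), and none passed the unblocked test. None of the 8 complex III genes passed the unblocked test, with differences between -0.08 and 0.21. The highest, Uqcrq, passed with the clone block (adjusted p = 0.00692, limma).

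The calls depended on the fit. Leaving out a library leaves 1 in its group, so only effect sizes are given for those fits. The members' median difference was 0.06 without dox clone 1 and 0.03 without dox clone 2. It was 0.05 without vehicle clone 1 and 0.03 without vehicle clone 2. Over all 12 alternative fits, those with a library left out included, the difference was 0.38 to 0.64 for Ndufa13 and 0.39 to 0.48 for Cox7a1. It was 0.29 to 0.43 for Ndufb4, 0.33 to 0.64 for Cox6b2 and, over 11 fits, 0.40 to 0.66 for Atp5s. The range was 0.15 to 0.35 for Cox6a1, 0.23 to 0.43 for Ndufa6 and 0.17 to 0.34 for Ndufa7. Without the trend, Cox6a1, Ndufa6, Ndufa7, Ndufb11 and Sdhc were no longer called. After the log values were corrected for GC content and transcript length, 6 members (7.89%) rose (Atp5s, Cox6b2, Cox7a1, Ndufa13, Ndufb4 and Sdhc) and 1 (1.32%) fell (Ndufv1), beside 14.5% and 17.4% of all genes, and the median difference was -0.01. In the deposited FPKM all 16 fibroblast markers rose in dox, with a median of 1.88, as did 4 of 8 macrophage markers, and the part of these cells' RNA in the members' differences was not tested. On raw FPKM, 31 of the 76 members (40.8%) had both dox clones above both vehicle clones, beside 34.5% of all genes, and 13 (17.1%) had both below, beside 37.2%.

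**Figure D2:**
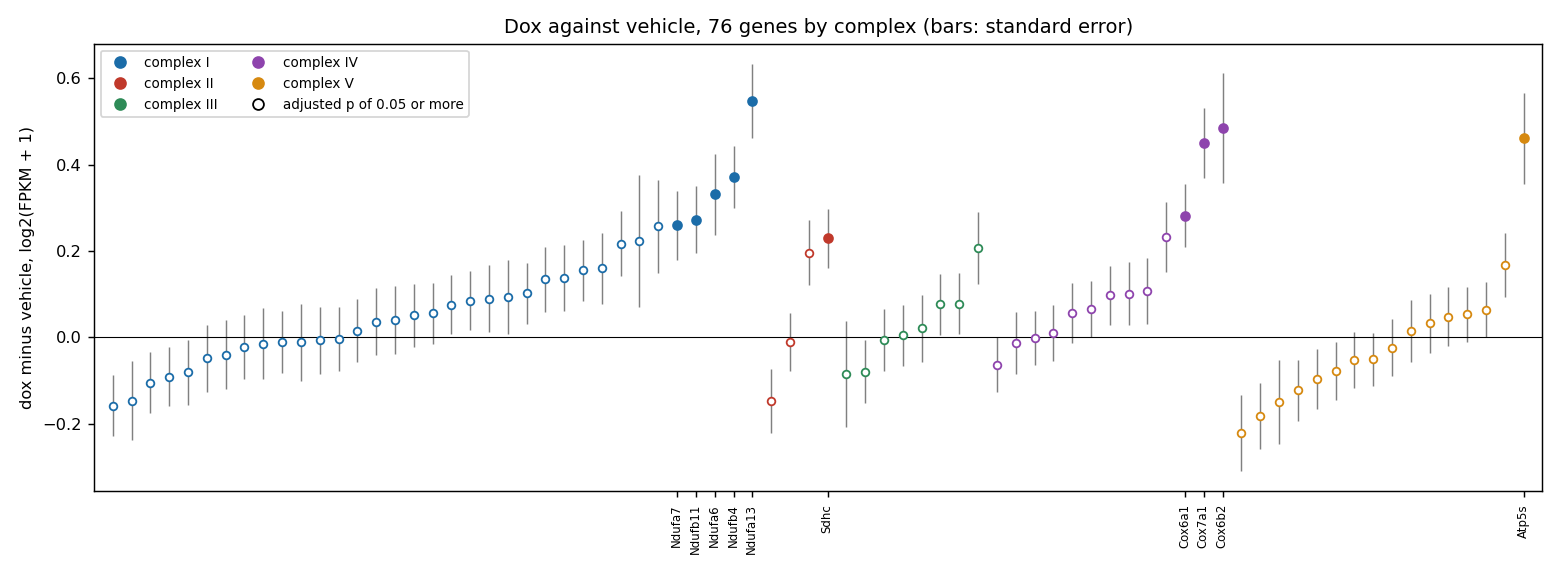
Dox minus vehicle difference on log2(FPKM + 1) with its standard error (n = 2 per group) for the 76 members tested, ordered within each complex. Filled points, which are named on the x axis, passed an adjusted p of 0.05 in limma; all 10 lie above 0, with Ndufa13 highest at 0.55.

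The wild-type and the vehicle-treated knock-in lines were set side by side next. They differ in genotype, transfection and clone, which cannot be told apart, and the 4 wild-type libraries entered as 1 group although their siRNAs differ. In vehicle 7 of the 76 members were higher and 14 were lower than in wild type, beside 33.7% of all 11931 genes higher and 32.9% lower (limma, adjusted p under 0.05). The members' median difference was -0.10 and that of all genes -0.0008. Without the double siRNA library, which was high in most members, 19 members were higher and 27 lower (36.2% and 34.6% of all genes), including all 21 of the main fit, and the median was -0.02. After the GC and length correction described above, 16 were higher and 24 lower (32.1% and 39.1% of all genes). The members' median was -0.10 without vehicle clone 1 and -0.09 without vehicle clone 2, in fits that leave 1 vehicle library. Of the markers above, 12 of 14 fibroblast markers and 6 of 8 macrophage markers were higher in vehicle, and their part was not tested. Over the 4 knock-in and 4 wild-type libraries, raw FPKM did not overlap for 11 members that were higher in the knock-in (14.5%, beside 30.5% of all genes) and 20 that were lower (26.3%, beside 30.2%).

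Cox6b2 differed most, and its promoter is shown beside that of its common counterpart Cox6b1. Both windows are the 250 bases before the RefSeq start site on GRCm38.p6, printed 5′ to 3′ on the gene's strand. Capitals mark a match to CCGGAAG, the core recognised by ETS factors such as GABP, on either strand (CTTCCGG on the printed one). Cox6b1 lies at chr7:30626115-30626364 and Cox6b2 at chr7:4753095-4753344, both on the minus strand.
Cox6b1: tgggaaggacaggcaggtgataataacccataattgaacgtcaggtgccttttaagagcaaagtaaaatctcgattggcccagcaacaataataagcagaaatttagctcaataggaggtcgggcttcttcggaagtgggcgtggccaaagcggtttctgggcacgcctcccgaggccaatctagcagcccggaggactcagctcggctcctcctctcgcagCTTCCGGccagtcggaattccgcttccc
Cox6b2: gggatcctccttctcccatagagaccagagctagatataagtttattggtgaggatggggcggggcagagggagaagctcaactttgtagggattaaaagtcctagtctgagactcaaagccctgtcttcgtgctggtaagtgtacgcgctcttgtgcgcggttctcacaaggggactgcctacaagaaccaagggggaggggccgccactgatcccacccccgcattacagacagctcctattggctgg
The Cox6b1 window of 300 bases, which adds 50 bases after the start, holds 17 CpG dinucleotides and 1 kind of match, and the Cox6b2 window holds 10 CpG dinucleotides and none of the 3 motifs searched.

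In the 4 wild-type libraries Cox6b2 was at 11.9 (siControl), 9.73 (Dnmt3a siRNA), 10.2 (Dnmt3b siRNA) and 12.5 FPKM (double siRNA). All 4 knock-in libraries were higher, at 39.7 and 34.0 FPKM in vehicle and 46.3 and 57.8 FPKM in dox, with no overlap. Vehicle exceeded wild type by 1.65 ± 0.11 on log2(FPKM + 1) (SE, n = 2 and 4, limma adjusted p = 2.62e-06), and by between 1.54 and 1.86 in all 13 alternative fits. Cox6b1 was at 300, 305, 305 and 365 FPKM in wild type and 366 and 337 FPKM in vehicle, a difference of 0.14 that did not pass (adjusted p = 0.209, limma). It did pass in 2 of the 13 alternative fits. These were the fit without the double siRNA library (0.21, adjusted p = 0.00516, limma) and that after the GC and length correction. Cox6b2 thus made up a small part of the pair's FPKM in both lines.

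Uqcrb, the small ubiquinone-binding subunit of complex III, was the second gene higher in the knock-in line. It was at 178, 166, 183 and 152 FPKM in the siControl, Dnmt3a siRNA, Dnmt3b siRNA and double siRNA libraries, and at 245 and 264 FPKM in vehicle. The dox clones, at 235 and 247 FPKM, were also above all wild-type libraries. The difference of 0.58 ± 0.09 (SE, n = 2 and 4, limma adjusted p = 0.000365) was 0.27 after the GC and length correction. Uqcrb (GRCm38 chr13:66900617-66905378, minus strand) is uncertain as a single gene, since the reference holds 3 near-identical copies (95% identity or more over at least 200 bases) and it overlaps Gm10767. The other 5 higher in vehicle were Ndufb6 (0.40) and Ndufb5 (0.32), of the complex I membrane arm, Ndufc1 (0.22), Cox5a (0.23) and the stalk subunit Atp5j (0.21).

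Among the 14 lower in vehicle, Atp5e, the epsilon subunit of the F1 rotor, had the largest difference. It was at 298 FPKM in siControl, 346 in Dnmt3a siRNA, 317 in Dnmt3b siRNA and 481 in double siRNA, against 218 and 217 FPKM in vehicle and 223 and 229 FPKM in dox. The difference was -0.70 ± 0.17 (SE, n = 2 and 4, limma adjusted p = 0.00576) and -0.55 without the double siRNA library. Cox7c, a small complex IV subunit, was at 421, 444, 431 and 625 FPKM in wild type in the same order and at 296 and 293 FPKM in vehicle (-0.68, limma adjusted p = 0.00364, and -0.55 without double siRNA). In both genes all 4 knock-in libraries were below all 4 wild-type ones, and Cox7c shares near-identical sequence with Gm10012, another row of the table.

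In complex I, 8 of 35 genes were lower in vehicle (22.9%, beside 32.9% of all genes). Ndufb2 was at 93.2, 104, 94.7 and 133 FPKM in wild type and 68.9 and 64.3 FPKM in vehicle, and Ndufa2 at 114, 124, 117 and 149 FPKM against 78.4 and 88.7 FPKM. The differences were -0.65 and -0.58. The core subunit Ndufs8 (-0.53), which carries iron-sulfur clusters, was also lower, as were Ndufs5 (-0.39), Ndufa13 (-0.36), Ndufb11 (-0.35) and Ndufa8 (-0.24). Complex III added Uqcrh (-0.46) and the Rieske protein Uqcrfs1 (-0.27), complex IV Cox7a1 (-0.36), and complex V Atp5g2 (-0.38), 1 of the 3 genes for the c-ring subunit. Its paralogues Atp5g1 and Atp5g3, which encode the same mature protein, differed by -0.10 and -0.07 and did not pass. None of the complex II genes passed, with differences between -0.07 and 0.06.

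The first 4 genes lower in vehicle and the first 4 higher were named as the largest differences that passed. Over the 13 alternative fits, which reuse the same libraries, Atp5e was at -0.78 to -0.45 and Cox7c at -0.77 to -0.51. Ndufb2 was at -0.75 to -0.48 and Ndufa2 at -0.67 to -0.44. Cox6b2 was at 1.54 to 1.86, Uqcrb at 0.27 to 0.64, Ndufb6 at 0.37 to 0.50 and Ndufb5 at 0.26 to 0.38. The difference of all 8 genes kept its sign with siControl as the only wild-type library. Ndufa13 and Cox7a1, lower in vehicle than in wild type and higher in dox than in vehicle, were no longer called between lines after the GC and length correction. The dox clones put Cox7a1 at 17.4 and 17.7 FPKM, inside the wild-type range of 13.5 to 19.9 FPKM. Both comparisons share the vehicle libraries.

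**Figure D3:**
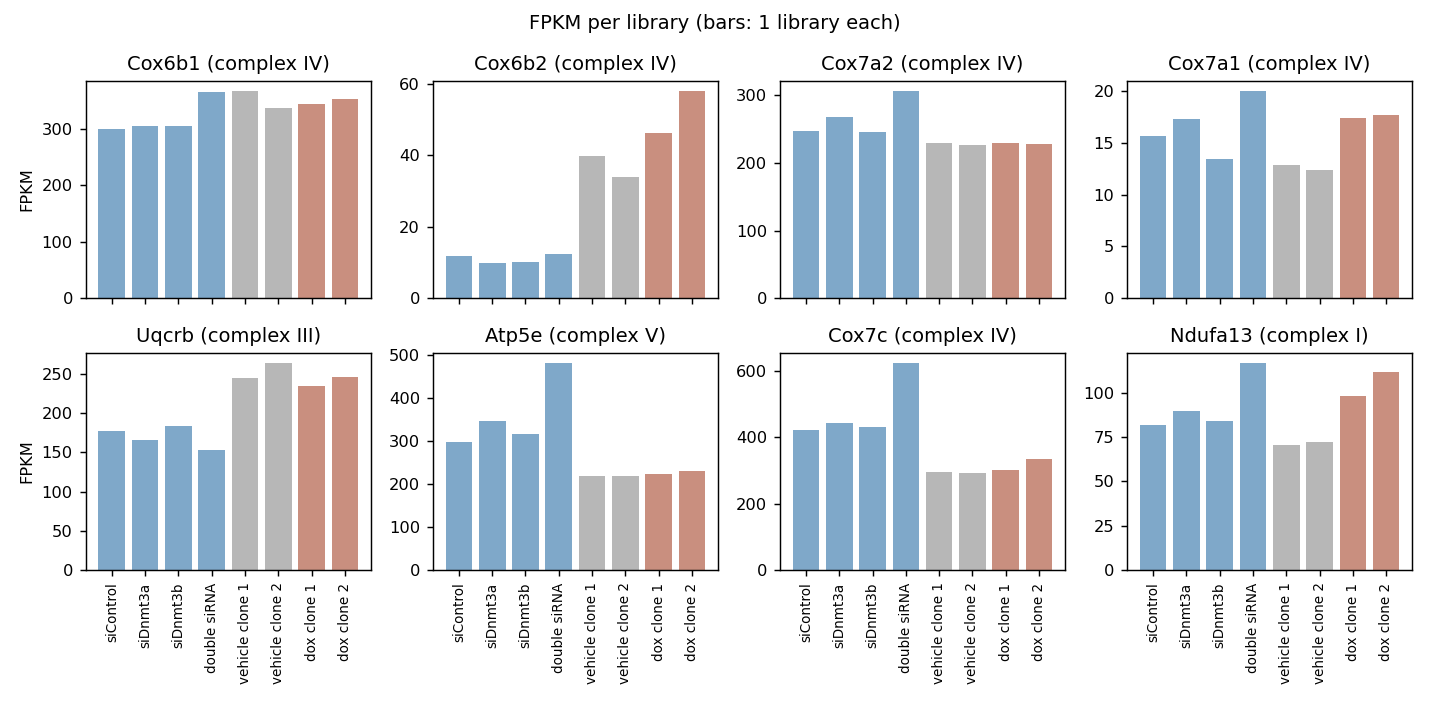
FPKM of 8 members in each of the 8 libraries (bars, 1 library each; blue, wild type; grey, vehicle; red, dox). Cox6b2 and Uqcrb are higher in every knock-in library than in any wild-type library, Atp5e and Cox7c are lower, and Cox6b1 varies less than Cox6b2.

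Few members, and few of all genes, were past the limits used for the single siRNA libraries against siControl. With 1 library per group these differences have no replicate check, and all siRNA comparisons share the siControl library. A gene was counted as different when FPKM + 1 was at least 25% higher, or at least 20% lower, than in siControl. In the Dnmt3a siRNA library 1 of 77 members (1.3%) was higher, Cox4i2 from 0.797 to 1.54 FPKM, and 0 were lower, beside 1.34% and 2.17% of all genes. Atp5k, at 281 FPKM in siControl and 329 FPKM with the Dnmt3a siRNA (1.17-fold), and Atp5e (1.16-fold) followed, while Cox6b2 was lowest at 0.820-fold, from 11.9 to 9.73 FPKM. In the Dnmt3b siRNA library 0 of 76 members were past these limits, beside 0.648% of all genes higher and 2.23% lower, and the outermost were Ndufs8 (1.14-fold) and Cox6b2 (0.857-fold). The members' medians were 0.07 and 0.04, with those of all genes at -0.0043 and -0.0028. With the Dnmt3a siRNA 60 members were above 0 and 17 below, and with the Dnmt3b siRNA 56 and 20. Of all genes 48.3% and 48.7% were above 0. An additive fit of both siRNAs over the 4 wild-type libraries, which also draws on the double siRNA library, gave 8 members higher for the Dnmt3a siRNA, with medians of 0.19 and 0.14. With no share of all genes given for that fit, its count is no result for the Dnmt3a siRNA. In the same libraries 12 of 15 fibroblast markers (Dnmt3a siRNA, median -0.58) and 12 of 14 (Dnmt3b siRNA, median -0.70) were at least 20% lower than in siControl, whose summed level of these markers was the highest in wild type. Between the 2 clones of a knock-in group, the same limits were passed by 1 member in vehicle (Ndufs5, 20.7 and 26.6 FPKM) and 2 in dox (Ndufs5, 24.5 and 31.1 FPKM, and Uqcrh, 261 and 207 FPKM), beside 4.25% of all genes higher and 3.51% lower in vehicle clone 2 and 4.52% and 4.07% in dox clone 2.

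The double siRNA library was higher across the pathway. Of 76 members, 37 (48.7%) were at least 25% higher than in siControl and 0 were at least 20% lower, beside 7.46% and 7.62% of all 11723 genes. The members' median difference was 0.31 and that of all genes 0.01. Every complex took part, with 18 of 35 genes in complex I, 2 of 4 in complex II, 4 of 8 in complex III, 6 of 13 in complex IV and 7 of 16 in complex V. For 71 of the 76 members (93.4%) the double siRNA library was the highest of the 4 wild-type libraries, beside 39.5% of all genes. Of 15 fibroblast markers tested, 13 were at least 20% lower in the same library. In the single siRNA libraries 12 of 15 (Dnmt3a siRNA) and 12 of 14 (Dnmt3b siRNA) were. The part of other cells' RNA in the members' values was not tested.

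Atp5e had the largest ratio, 1.61-fold, from 298 to 481 FPKM. Uqcrq, at 231 FPKM in siControl, 262 and 243 FPKM in the single siRNA libraries and 365 FPKM in the double one, followed at 1.59-fold. Ndufb8 was at 203, 219 and 209 FPKM and then at 315 FPKM, a ratio of 1.55. In each of the 3 genes the double siRNA library stood above the other wild-type libraries. The 5 exceptions, for which the double siRNA library was the lowest of the 4, were Uqcrb (0.859-fold), Atp5s (0.935-fold), Ndufs1 (0.956-fold), Sdha (0.968-fold) and Atp5j (0.993-fold), and Ndufs1 and Sdha encode large catalytic subunits of complexes I and II.

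Members have short transcripts, with a median of 742 bases beside 2809 for all genes with at least 1 FPKM. In the double siRNA library short transcripts were higher among all genes too. Under 1000 bases, 31 of 48 members (64.6%) and 37.1% of all genes were at least 25% higher. Between 1000 and 2000 bases the counts were 4 of 21 members (19%) and 14.3% of all genes, and at 2000 bases or more they were 2 of 7 members (28.6%) and 1.56% of all genes. Across genes, which are not independent replicates and share both libraries, the Spearman correlation of the difference was -0.39 with length and 0.50 with GC content over the 76 members, and -0.50 and 0.51 over all 11608 genes with an annotation. After correction for both, 7 of the 37 members remained at least 25% higher (Atp5e, Atp5g1, Atp5j2, Cox7c, Ndufb2, Ndufb8 and Uqcrq) and 0 lower, beside 3.26% and 3.82% of all genes, with a member median of 0.12.

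**Figure D4:**
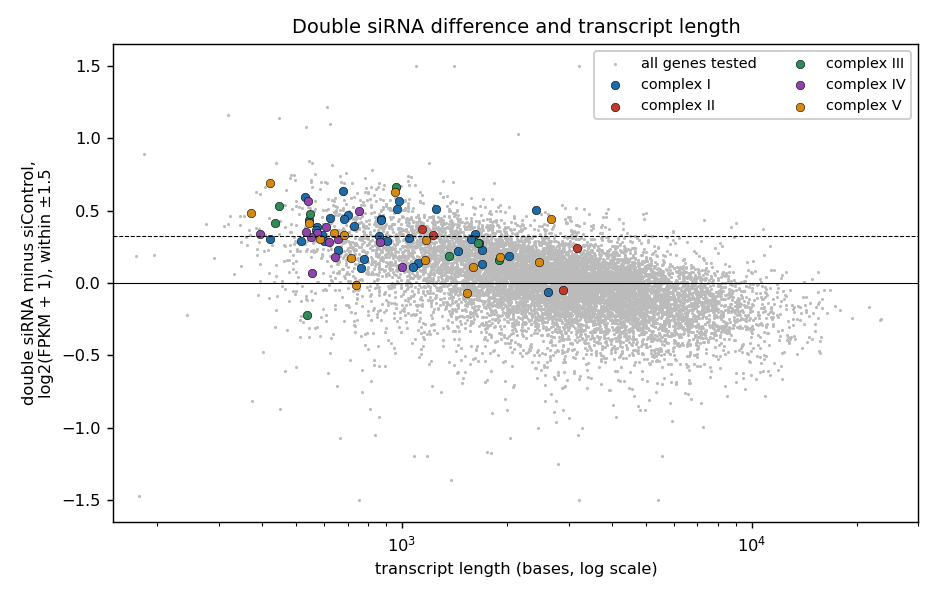
Difference between the double siRNA and siControl libraries on log2(FPKM + 1) (y axis, values beyond 1.5 drawn at 1.5) against transcript length (x axis, log scale) for all genes (grey) and the members by complex (coloured). Short transcripts lie higher among all genes, the members sit at the short end, and the dashed line marks 25% higher.

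Other genes of the pathway were read from lists of related genes. Of 8 subunits and carriers outside the naming pattern, Ndufa4l2, a hypoxia-induced paralogue of Ndufa4, rose in dox from 2.24 and 2.09 FPKM to 9.74 and 8.61 FPKM (1.68, limma adjusted p = 0.000289). It was also higher with the Dnmt3a siRNA, at 7.91 FPKM, than in siControl, at 3.48 FPKM. Cycs, cytochrome c, fell in dox from 55.1 and 56.4 FPKM to 45.9 and 42.1 FPKM (-0.34, limma adjusted p = 0.0222), and the other 6 did not pass. Of 47 assembly factors, which build the complexes without staying in them, 5 of 46 tested (10.9%) rose in dox and 2 (4.35%) fell, beside 17.1% and 14.8% of all genes, with a median of -0.03. Nubpl, which delivers iron-sulfur clusters to complex I, rose by 0.43, and Tmem186, a complex I assembly factor, fell by 0.41. In vehicle against wild type 10 of 47 (21.3%) were higher and 15 (31.9%) lower, beside 33.7% and 32.9% of all genes, and the outermost were Cox18 at 0.83 and 2900010M23Rik at -1.05.

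Of 15 regulators of these genes tested in dox, 1 rose (6.67%) and 2 fell (13.3%), shares under those of all genes. Hif1a, the hypoxia factor, rose by 0.58, from 35.9 and 37.0 FPKM to 55.7 and 53.8 FPKM, while Yy1 fell by 0.45 and Tfam, the mitochondrial transcription factor, fell by 0.31. Nrf1, a known activator of respiratory genes, was at 23.1 and 22.7 FPKM in vehicle and 19.8 and 16.3 FPKM in dox and did not pass (adjusted p = 0.0547, limma). Between lines, 4 of 15 regulators (26.7%) were higher and 6 (40.0%) lower in vehicle, beside the 33.7% and 32.9% of all genes, among them the coactivator Ppargc1b (1.01) and the GABP subunit Gabpb1 (-0.58). Of 16 genes of the citric acid cycle and its pyruvate dehydrogenase entry, 0 rose and 1 (6.25%) fell in dox (Pdhb, by 0.26), beside 17.1% and 14.8% of all genes. Between lines, 4 (25.0%) were higher and 6 (37.5%) lower in vehicle than in wild type. Mitochondrial ribosomal protein genes, whose products translate the mitochondrial subunits, numbered 76. Of these 1 (1.32%) rose and 5 (6.58%) fell in dox, beside 17.1% and 14.8% of all genes. In vehicle 5 (6.58%) were higher and 46 (60.5%) lower than in wild type (median -0.28), beside 33.7% and 32.9%. In the double siRNA library 30 (39.5%, beside 7.46% of all genes) were at least 25% higher (median 0.30). After the GC and length correction 16 were, beside 3.26% of all genes.

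The promoters of 67 members were held in the RefSeq table (GRCm38.p6, 250 bases before to 50 after each start). Letters searched on both strands were GCGCA and GCGC parted by any 1 base for NRF1, CCGGAAG for ETS factors and AAGATGGC for YY1, and none of these contains another, though matches can share end bases. NRF1 letters were in 17 of 67 member promoters (25.4%), beside 5.19% of all promoters and 11.8% of those of genes with at least 1 FPKM. ETS letters were in 16 (23.9%, beside 9.93% and 20.6%), and YY1 letters in 10 (14.9%, beside 3.19% and 5.30%). The median number of CpG dinucleotides per window was 19 in members, 8 over all genes and 22 over genes with at least 1 FPKM.

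Atp5g2 and Atp5j show what such promoters look like, the first with the NRF1 letters and the second with both the YY1 and the ETS letters, in capitals. Each is the 250 bases before the start on the minus strand of GRCm38.p6, at chr15:102671048-102671297 for Atp5g2 and chr16:84834977-84835226 for the second of the Atp5j start sites.
Atp5g2: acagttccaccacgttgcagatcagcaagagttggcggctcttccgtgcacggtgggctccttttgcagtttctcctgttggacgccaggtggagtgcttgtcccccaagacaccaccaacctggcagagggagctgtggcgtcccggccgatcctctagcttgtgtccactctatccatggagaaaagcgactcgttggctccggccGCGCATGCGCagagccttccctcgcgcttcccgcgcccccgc
Atp5j: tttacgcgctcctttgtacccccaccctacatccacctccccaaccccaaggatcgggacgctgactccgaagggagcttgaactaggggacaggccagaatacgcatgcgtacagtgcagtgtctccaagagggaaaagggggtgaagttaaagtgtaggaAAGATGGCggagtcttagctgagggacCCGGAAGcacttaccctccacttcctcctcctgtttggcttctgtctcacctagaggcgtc
Medians of members with and without each motif are given as a description. With YY1 letters the median difference between vehicle and wild type was 0.08 over 10 members, and without them -0.11 over 55. For NRF1 the medians were -0.07 (17 members) and -0.10 (48 members), and for ETS -0.08 (16) and -0.10 (49). In dox against vehicle all 6 medians lay between -0.02 and 0.05. A match is a description of these letters and no evidence of binding.

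The genes most like Ndufa13 over the 8 libraries, by Pearson correlation of log2(FPKM + 1), were Hemk1 (r = 0.98), Dnpep (0.98), Ddost (0.98), Ssr4 (0.97) and Calm3 (0.97). They were picked from all genes as the 5 highest outside the pathway, and the 8 points share the same libraries, including the high double siRNA one. Ddost, for example, was at 110 FPKM in siControl, 131 FPKM in the double siRNA library, 100 and 104 FPKM in vehicle and 128 and 133 FPKM in dox. Of the 81 members, 20 have at least 1 near-identical copy in the reference and 26 overlap another gene, so their FPKM depend on how the authors' software divided shared fragments.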

How the data were processed

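RNA-seq values of 8 mouse iPSC libraries were analysed as FPKM, which the authors deposited as 1 table of 23284 genes with 1 column per library. PolyA RNA went into stranded libraries for a HiSeq2500, per the labels' protocols. Per the submitters' processing notes, the builds were GRCm38 and mm10, and the tools Cuffnorm, Cufflinks 2.2.1, TopHat2 2.0.10, Bowtie 1.0.0, FastQC and SAMtools 0.1.19. The sources used here do not give Cuffnorm's scaling option, the annotation release, the strand setting or the depth. FPKM are relative values, and fragments of near-identical genes are divided by estimation. Median-of-ratios factors of the deposited values lay between 1.002 and 1.007 in all 8 libraries, so scaling by them changes little.

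Groups were taken from the labels. Genes with a mean of at least 1 FPKM in the libraries compared were tested on log2(FPKM + 1) with limma 3.58.1 in R 4.3.3 (eBayes with a trend, two-sided, Benjamini-Hochberg over all genes tested, threshold 0.05), which was tested on simulated data. This scale understates the change of low genes. The dox fit used the 4 knock-in libraries, and the comparison of lines used the 4 wild-type and 2 vehicle libraries. With 1 library per group, genes at least 25% higher or 20% lower in FPKM + 1 were counted, with no test.

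The clone number was used as a block in an alternative fit, since the labels give clone numbers. Across 11927 genes, clone differences in dox and in vehicle had a Pearson r of 0.44. Other alternatives were a pseudocount of 0.1, a minimum of 5 FPKM or none, median-of-ratios scaling, correction of each library for GC content and length (loess span 0.3), no trend, an additive fit of both siRNAs, and leaving out libraries. Leaving out the siControl, Dnmt3a siRNA and Dnmt3b siRNA libraries in turn was chosen after seeing the data.

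Positions, lengths and GC content came from GENCODE release 21 of the mouse on GRCm38, as medians over principal transcripts, and all 81 members matched. Near-identical copies were found with blastn 2.17.0. Older symbols matched 17 assembly factors, 2 regulators and 1 macrophage marker. Named members were the 2 highest and the lowest of each complex, the largest differences per direction in each comparison (6 for dox, 4 for the lines, 3 per siRNA library), and the isoform families of complex IV and the c-ring. Other members that passed a test are named for completeness, except 1 that is not reported here. The members and lists were chosen with earlier results of these data known.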

Additional observations from a re-analysis of the deposited data

Results flagged for a closer look

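In 8 of the 45 named members, 1 wild-type library stood apart, its gap to the nearest of the other 3 exceeding Dixon's critical value for 4 samples. The share was 17.8% of the named members, beside 8.79% of the 12042 genes with a mean of at least 1 FPKM. Chance flags about 1 in 20 groups, and some of these members were named as extremes of the siRNA comparisons, so their number is no result. In 6 of them the double siRNA library was the high one. The gap made up 0.927 of the range for Ndufa11 (32.2 FPKM against 23.3 to 23.9), 0.92 for Cox6a1 (369 against 291 to 297), 0.917 for Cox6b1 (365 against 300 to 305), 0.896 for Atp5b (1246 against 1101 to 1116), 0.884 for Cox7c (625 against 421 to 444) and 0.853 for Ndufb8 (315 against 203 to 219). For Cox8c it was the low one (ratio 0.89, 0.376 against 0.522 to 0.540 FPKM), all under 1 FPKM. For Cox4i2 the Dnmt3a siRNA library was the high one (ratio 0.874, 1.54 against 0.766 to 0.863 FPKM).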

How the results depend on the processing

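In dox against vehicle, the 10 members that rose became 3 (and 1 fell) with no minimum FPKM, 5 without the trend, 6 (and 1 fell) after the GC and length correction (14.5% and 17.4% of all genes rose and fell there), and 19 (and 6 fell) with the replicate block (25.6% and 26.7%). With the replicate block and that correction together, 8 fell. The median became -0.0068 with the correction, with or without the block. Leaving out 1 library gave 3 to 9 that rose and 0 to 1 that fell. Between wild type and vehicle, the 7 higher and 14 lower became 16 and 24 after the correction, and 19 and 27 without the double siRNA library (median -0.020). With siControl as the only wild-type library the median was 0.000204. Leaving out a vehicle clone gave medians of -0.0995 and -0.0903. Leaving out the siControl, Dnmt3a siRNA and Dnmt3b siRNA libraries in turn gave 5 higher and 11 to 18 lower. Among the named members, 4 uncalled differences turned and passed after the correction: Atp5s to -0.35, Cox6a1 to 0.27, Cox7b to -0.21 and Cox8a to 0.28. For the Dnmt3a siRNA, 0 were higher at a minimum of 5 FPKM, 1 was lower after the correction (median 0.028), and the additive fit gave 8 higher (median 0.19). For Dnmt3b siRNA that fit gave a median of 0.14. For the double siRNA, 1 was lower with no minimum, and 7 were higher after the correction (median 0.12). The corrections and fewer libraries change the calls by construction, and other causes were not tested. For fits with no share of all genes given here or above, the counts are no result about the members. Of all recomputed summary values, 109 kept within 1.5 times a count or the spread between clones, 29 moved further and 3 turned in sign. The unknown depth leaves genes near 1 FPKM imprecise.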
